A study of Bos taurus with 30 samples.

Results

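The miR-200 family is a group of 5 microRNAs, bta-miR-141, bta-miR-200a, bta-miR-200b, bta-miR-200c and bta-miR-429 (bta- for the bovine form, left off from here on), and its expression was examined in the anterior pituitary of 30 bull calves. The members were taken by name as 5 of the 1030 mature miRNAs in the deposited table, and no expression value was used to choose them. Each member was above 0 in all 30 libraries, and each was among the 419 miRNAs that passed the filter on low counts. All calves were Holstein-Friesian bulls, and the pituitary was collected at 12 weeks of age. From 2 weeks of age the 15 calves on the high plane of nutrition (HI) were given 1.5 kg of milk replacer in 10 litres per day with unlimited concentrate. The 15 calves on the moderate plane (MOD) were given 0.5 kg of milk replacer in 4 litres per day with 0.5 kg of concentrate. There was 1 library per calf. The diets were balanced for farm of origin and sire, which the labels do not give per calf.

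miRNAs are short RNAs that guide silencing complexes to messenger RNAs, which they recognise mainly through the seed, a short stretch near the 5′ end. In the miR-200 family miR-200b, miR-200c and miR-429 share a seed, while miR-200a and miR-141 share another that differs from it at a single base. The family is a mark of epithelial cells. It silences ZEB1 and ZEB2, which are repressors of the E-cadherin gene, and ZEB1 and ZEB2 in turn repress the miR-200 genes. The hormone cells of the anterior pituitary are of epithelial origin. In female mice the loss of miR-200b and miR-429 impairs the release of luteinising hormone, the gonadotropin that drives the gonads, through ZEB1 acting on the gene of its beta subunit. The genes lie in 2 groups. In the RefSeq annotation of the ARS-UCD2.0 assembly, MIR200A stands directly between MIR429 and MIR200B, and TTLL10 is the gene on the other side of MIR429. In the same annotation MIR141 and MIR200C stand side by side, with PTPN6 next to MIR200C. The files were made on another build, ARS-UCD1.2, so no positions are given. No row for another arm of these hairpins was in the table.

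Reads placed on miRNAs numbered 6650492 to 11086524 per library. Values are given as CPM, reads per 1000000 miRNA reads, with the TMM scaling found in the deposited values, which corrects library totals for differences in composition. The most abundant miRNA was miR-375, a miRNA of endocrine cells, at 103334 to 197219 CPM. Of markers for other tissues, miR-124a of neurons averaged 0.755 CPM, while the less restricted neural miRNAs miR-218 and miR-128 averaged 529 and 465 CPM. In striated muscle, miR-1 and miR-206 are defining and averaged 0.00356 and 0.00374 CPM, and the 4 muscle miRNAs listed summed to 5.86 to 85.8 CPM in HI and 7.38 to 30.6 CPM in MOD calves. In addition, 9 libraries stood apart from the other 21 in many miRNAs. They are those of the calves whose numbers in the labels are highest, with 5 HI and 4 MOD calves among the 9 and 10 HI and 11 MOD calves among the 21. That boundary was set in earlier work on these same libraries, from the values of a miRNA outside the family. The p-values between the sets, for members and markers alike, take the split as given and are descriptions. Results that depend on the boundary are given within both sets.

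The family was abundant in reads, and miR-141 made up most of them. Together the 5 members held 1.72% to 2.55% of the miRNA reads of a library, with a mean of 2.11%. Expression of miR-141 averaged 15042 CPM, which placed it 19th among all miRNAs in the table. Its partner miR-200c averaged 1858 CPM (52nd). In the other group miR-200a averaged 2647 CPM (47th), miR-429 averaged 819 CPM (78th) and miR-200b averaged 762 CPM (81st). Even the lowest value of a member in any library, 573 CPM of miR-200b, rested on 5074 reads, so that counting error was small beside the differences between calves. The values of all 5 members corresponded to whole reads in each library, within 0.01 of a read.

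The order of the first 4 members was the same in each calf. It is an order of reads, as levels of different miRNAs in ligation-based libraries are comparable only roughly. Expression of miR-141 exceeded that of miR-200a in 30 of 30 calves, by a geometric mean of 5.68-fold and by 4.96-fold to 6.65-fold in single calves. The next step down, from miR-200a to miR-200c, was 1.43-fold and also held in 30 of 30 calves. From miR-200c to miR-429 it was 2.29-fold, again in 30 of 30 calves. The levels of miR-429 and miR-200b did not differ beyond their spread. Their ratio averaged 1.07 and ran from 0.744 to 1.65, and miR-429 was the higher in 16 of 30 calves. Those 16 were the whole set of 9 calves with high label numbers and 7 of the other 21. Summed by seed, miR-200a and miR-141 came to 17689 ± 1602 CPM and miR-200b, miR-200c and miR-429 to 3439 ± 233 CPM (SD, n = 30 each).

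**Figure D1:**
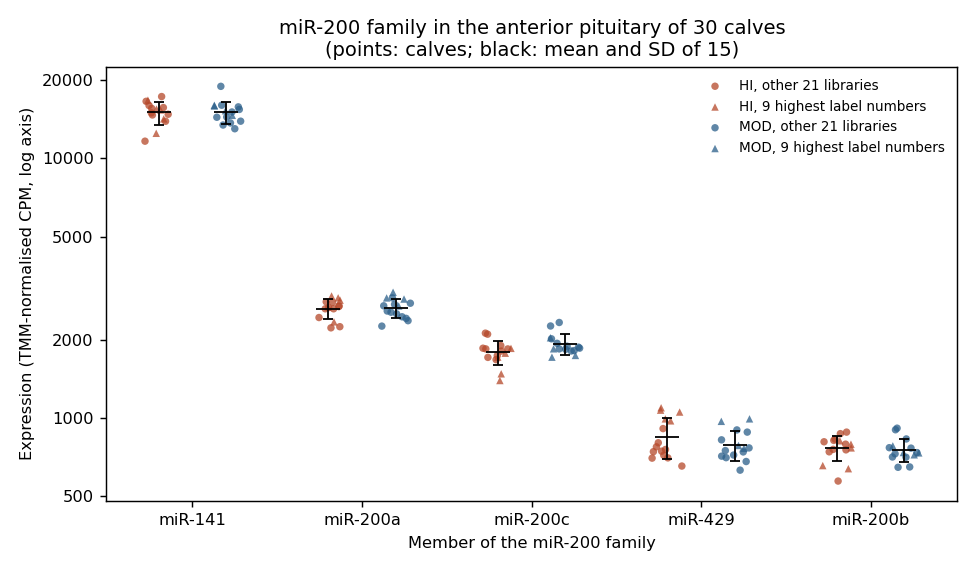
Expression of the 5 members in CPM on a log axis, by diet, with a point for each calf and black bars for the mean and SD of 15 calves. HI and MOD calves overlap for each member, and miR-141 averages 15042 CPM against 762 CPM for miR-200b, while the triangles for the 9 highest label numbers lie high for miR-429.

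Most members varied less between calves than the median miRNA. The standard deviation within diets on the log2 scale was 0.13 for miR-200a, 0.14 for miR-141 and miR-200c, and 0.16 for miR-200b. For comparison, its median was 0.25 over the 419 miRNAs tested and 0.17 over the 95 of them that averaged at least 500 CPM. Among those 95 abundant miRNAs miR-200a was at the 16.8th percentile of spread, miR-200c at the 27.4th, miR-141 at the 30.5th and miR-200b at the 40th. In contrast miR-429, with a standard deviation of 0.22, was at the 68.4th percentile. That value takes in the difference between the sets of 9 and 21 libraries. Within the 21 the SD of miR-429 was 10.0% of its mean, against 7.57% (miR-200a) to 11.4% (miR-200b) for the other members. Within the 9 it was 12.2%, against 7.40% (miR-200a) to 11.2% (miR-200c). The single highest value of miR-141, 18933 CPM, was in a MOD calf, and the lowest, 11646 CPM, was in an HI calf that also had the lowest miR-200a and miR-200b.

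The comparison of HI with MOD asks whether early feeding changed the family in the gland. None of the 5 members passed FDR < 0.1 with limma, where 3.58% of the 419 miRNAs tested did. Of those tested, 1.91% passed with a higher level in HI calves and 1.67% with a lower one. With the study's further threshold of a fold change above 1.5, 0.477% of all tested miRNAs passed. At an unadjusted p under 0.05, 12.6% of all tested miRNAs and no member passed. The log2 fold changes of 3 members were below 0, and their median was -0.00 against 0.02 over all tested miRNAs. The intervals were narrow: of the 5 members the widest, that of miR-429, ended at a 1.19-fold increase, so that a change of 1.5-fold in either direction lay outside each 95% interval.

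Expression of miR-141, the most abundant member, ran from 11646 to 17294 CPM in HI calves (median 15361) and from 13002 to 18933 CPM in MOD calves (median 15082). The means were 15024 ± 1524 and 15060 ± 1447 CPM (SD, n = 15 each), and the MOD median was exceeded by 8 of 15 HI calves. All fold changes given are differences of log2(CPM + 1), and that of miR-141 was -0.00 (standard error 0.05, adjusted p = 0.984 with limma).

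Its genomic partner miR-200c had the lowest unadjusted p of the family. It ran from 1396 to 2125 CPM in HI calves (median 1812) and from 1717 to 2335 CPM in MOD calves (median 1860). A total of 4 HI calves lay below the lowest MOD calf, and 3 of 15 lay above the MOD median. The log2 fold change was -0.11 (standard error 0.05, 95% interval -0.21 to 0.00), with an unadjusted p of 0.0558 and an adjusted p of 0.410 in limma. Under upper quartile scaling, which shifted the median of all tested miRNAs by -0.08, it was -0.21 with an adjusted p of 0.0619. On total counts it was -0.04 (adjusted p = 0.742 with limma), and -0.04 (adjusted p = 0.728) when library sizes left out the 5 most abundant miRNAs. Within the 21 libraries it was -0.07 (adjusted p = 0.663 with limma) and within the 9 it was -0.16 (adjusted p = 0.784).

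In the other group, miR-200a ran from 2227 to 2954 CPM in HI calves (median 2680) and from 2261 to 3053 CPM in MOD calves (median 2703). Its log2 fold change was -0.01 (standard error 0.05, adjusted p = 0.970 with limma), and the ranges of the diets overlapped nearly throughout. Expression of miR-200b ran from 573 to 884 CPM in HI calves (median 794) and from 647 to 915 CPM in MOD calves (median 737). Although 12 of 15 HI calves exceeded the MOD median, 2 lay below the lowest MOD calf, and the log2 fold change was 0.02 (standard error 0.06, adjusted p = 0.945 with limma). The signs of these small differences, and that of miR-141, turned with the scaling of the libraries.

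Expression of miR-429 ran from 654 to 1097 CPM in HI calves (median 776) and from 631 to 994 CPM in MOD calves (median 766). The 3 highest calves were all HI, yet just 8 of 15 HI calves exceeded the MOD median. The log2 fold change was 0.09 (standard error 0.08, adjusted p = 0.732 with limma). Within the 21 libraries HI and MOD calves averaged 752 ± 70.3 CPM (SD, n = 10) and 757 ± 83.3 CPM (SD, n = 11). Within the 9 the means were 1039 ± 51.8 CPM (SD, n = 5) and 879 ± 121 CPM (SD, n = 4), a log2 difference of 0.25 (adjusted p = 0.773 with limma). The test of whether the diet difference itself changed between the sets gave an unadjusted p of 0.0361 and an adjusted p of 0.786 in limma. No miRNA passed that test at FDR < 0.1, and 5.01% of the 419 had an unadjusted p under 0.05.

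**Figure D2:**
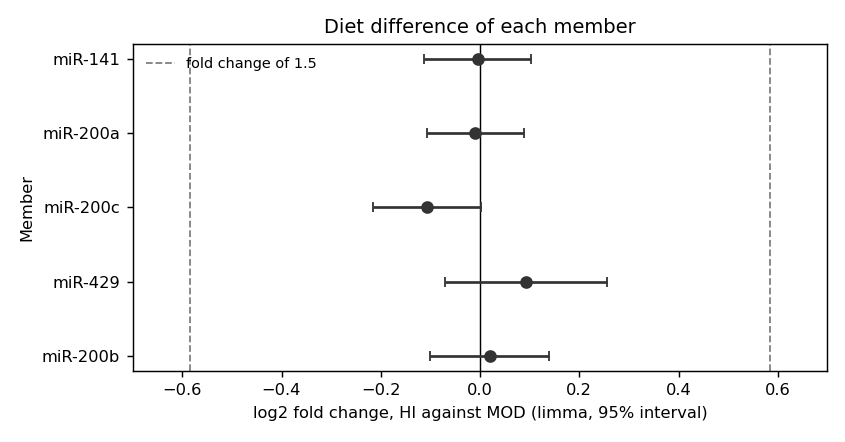
Log2 fold change of each member in HI against MOD calves from limma (n = 15 each), with 95% intervals as bars and dashed lines at a fold change of 1.5. All 5 intervals take in 0 and end inside the dashed lines, and miR-200c, from -0.21 to 0.00, lies farthest to the left.

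For comparison, miR-205, the other epithelial miRNA examined, was lower in HI calves, at a log2 fold change of -0.67 (standard error 0.19, adjusted p = 0.0424 with limma). Over the 30 calves its level had r = 0.01 with miR-141, 0.02 with miR-200a, 0.02 with miR-200b, 0.28 with miR-200c and -0.30 with miR-429. The sets differed in this: within the 21 libraries the 5 values were -0.20, -0.15, -0.18, -0.04 and -0.13, and within the 9 they were 0.47, 0.60, 0.39, 0.54 and -0.37. These correlations are given as a description.

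Ratios within a library do not depend on how libraries were scaled, and 5 were compared between the diets. The ratio of miR-200b to miR-200c, which share a seed but come from different genomic groups, was higher in HI calves. It averaged 0.428 in HI and 0.393 in MOD calves as a geometric mean, and 13 of 15 HI calves exceeded the MOD median. On the log2 scale the means were -1.22 ± 0.12 and -1.35 ± 0.12 (SD, n = 15 each), a difference of 0.13 (standard error 0.04). The two-sided permutation test gave p = 0.00756, and 0.0378 after Benjamini-Hochberg adjustment over the 5 ratios. Taken singly, miR-200b and miR-200c had log2 fold changes of 0.02 and -0.11, and neither passed FDR < 0.1 in limma. The share of ratios of other miRNA pairs that would pass was not measured. Within the 21 libraries the log2 difference was 0.11 (permutation test, p = 0.0552, adjusted 0.276), and within the 9 it was 0.14 (exact permutation test, p = 0.0159, adjusted 0.0794). When single calves were left out, the adjusted p ran from 0.00250 to 0.0695.

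The other 4 ratios, which are between partners of a genomic group, did not pass. The ratio of miR-200c to miR-141 averaged 0.119 in HI and 0.128 in MOD calves (permutation test, p = 0.0595, adjusted 0.149). Without any of 5 single calves (HI replicates 1, 6, 7 and 8 and MOD replicate 15) its adjusted p fell below 0.1, to between 0.0496 and 0.0970. The ratio of miR-200b to miR-200a was 0.290 in HI and 0.284 in MOD calves (permutation test, p = 0.546). Those of miR-200b to miR-429 and miR-200a to miR-429 had log2 differences of -0.07 and -0.10 (permutation tests, p = 0.491 and 0.167), and within the 21 libraries they were 0.05 and 0.01. Within the 9 they were -0.27 (exact permutation test, p = 0.111, adjusted 0.185) and -0.32 (exact permutation test, p = 0.0317, adjusted 0.0794).

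**Figure D3:**
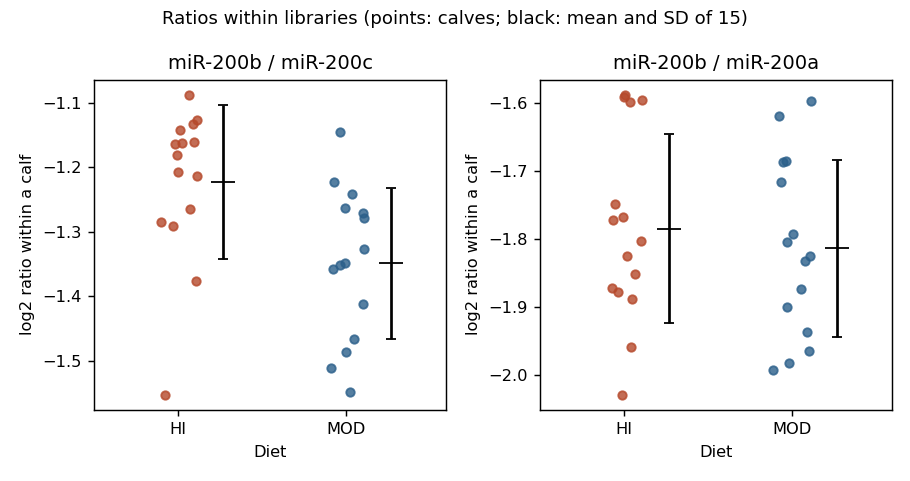
Log2 ratio within each calf of miR-200b to miR-200c (left) and of miR-200b to miR-200a (right), by diet, with a point for each calf and black bars for the mean and SD of 15. On the left the HI mean of -1.22 lies above the MOD mean of -1.35 and the ranges overlap, and on the right the means are -1.78 and -1.81.

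The members did not vary as one unit across calves, and the 10 pairs were compared. The highest correlation joined the 2 genomic groups. Expression of miR-141 and miR-200b had r = 0.69 over 30 calves (Spearman's rho 0.53, permutation p = 0.000100 and 0.00274, 0.00100 and 0.0111 after adjustment over the 10 pairs), and r = 0.53 without the 2 calves farthest from the median of miR-141. For both of these miRNAs the other was the closest match among all 418 other tested miRNAs. The correlation was 0.67 within the 21 libraries and 0.90 within the 9. Expression of miR-200c and miR-200b followed, with r = 0.63 (rho 0.48, permutation p = 0.000240 and 0.00818, adjusted 0.00120 and 0.0141), and r = 0.54 without the 2 calves farthest from the median of miR-200c.

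Of the 4 pairs within a genomic group, 3 were correlated at an adjusted p under 0.1. These were miR-200a with miR-200b (r = 0.57, rho 0.48, adjusted permutation p = 0.00315 and 0.0141), miR-141 with miR-200c (r = 0.50, rho 0.42, adjusted permutation p = 0.0101 and 0.0335) and miR-200a with miR-429 (r = 0.47, rho 0.52, adjusted permutation p = 0.0111 and 0.0111). Without the 2 calves farthest from the median of the first-named miRNA, r was 0.50, 0.37 and 0.45. Several miRNAs outside these pairs matched more closely. Among the 418 other tested miRNAs, miR-200a and miR-200b each stood 7th in closeness to the other. For miR-141, miR-200c stood 9th, and for miR-200c, miR-141 stood 24th. For miR-200a, miR-429 stood 20th, and for miR-429, miR-200a stood 39th. The share of all miRNA pairs that would pass was not measured. The pair of miR-200a and miR-429 had r = 0.39 within the 21 libraries and r = -0.12 within the 9.

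The pair within a genomic group that did not pass was miR-429 with miR-200b. Although their genes are in the same group, the pair had r = -0.06 (rho -0.03, permutation p = 0.733 and 0.853, adjusted 0.815 and 0.966) and r = -0.10 without the 2 farthest calves. The correlation of miR-429 with miR-141 was 0.03 (rho -0.01, permutation p = 0.880 and 0.966). Within the 21 libraries miR-429 had r = 0.16 with miR-200b and 0.10 with miR-141, and within the 9 it had r = -0.09 and -0.26. With miR-200c it was -0.51 (rho -0.48, permutation p = 0.00352 and 0.00758, adjusted 0.00704 and 0.0141), and -0.37 without the 2 farthest calves. That negative relation was -0.14 within the 21 libraries and -0.52 within the 9, and it no longer passed the threshold on total counts (r = -0.33, adjusted p = 0.110) and with upper quartile scaling (r = -0.18, adjusted p = 0.437). Across the remaining pairs, miR-141 with miR-200a had r = 0.60 (rho 0.57, adjusted permutation p = 0.00193 and 0.0111) and r = 0.48 without the 2 farthest calves. Lastly, miR-200c with miR-200a had r = 0.15 (rho 0.02, adjusted permutation p = 0.537 and 0.966), and r = 0.52 with upper quartile scaling. Within the sets that pair had r = 0.40 (21 libraries) and r = 0.57 (9 libraries).

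**Figure D4:**
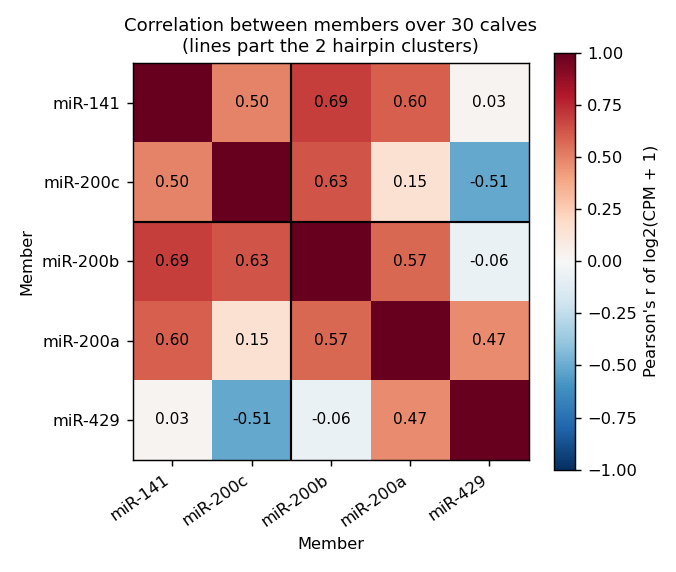
Pearson's r between members over 30 calves on log2(CPM + 1), with black lines between the 2 genomic groups and colour from blue (negative) to red (positive). The square of miR-141, miR-200c and miR-200b holds values of 0.50 to 0.69, whereas miR-429 has 0.03 with miR-141, -0.51 with miR-200c and -0.06 with miR-200b. With miR-200a, miR-429 has 0.47.

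The sets of 9 and 21 libraries differed most in miR-429 of the 5 members. The p-values between the sets are descriptions, as the boundary was set on these same libraries. With diet in the model, miR-429 was higher in the 9 by 0.35 on the log2 scale (standard error 0.06, adjusted p = 0.000141 with limma). It ran from 766 to 1097 CPM in the 9 (median 994) and from 631 to 912 CPM in the 21 (median 743), and 7 of the 9 lay above the highest of the 21. In this comparison 26% of all 419 miRNAs passed FDR < 0.1, 11.7% being higher and 14.3% lower in the 9, so a call is common here. Its neighbour miR-200a was also higher in the 9, by 0.12 (standard error 0.05, adjusted p = 0.0649 with limma). For miR-200b the difference was -0.06 (standard error 0.06, adjusted p = 0.536 with limma). In the other group miR-200c was lower by 0.14 (log2 difference -0.14, standard error 0.05, adjusted p = 0.0665), and miR-141 differed by 0.01 (standard error 0.06, adjusted p = 0.888). The call of miR-200a was lost with upper quartile scaling (0.08, adjusted p = 0.349). That of miR-200c was lost on total counts (-0.12, adjusted p = 0.152), without the 5 most abundant miRNAs in the library sizes (-0.11, adjusted p = 0.174) and with the label range as a block (-0.10, adjusted p = 0.227). That of miR-429 held under the 5 alternatives tried, at 0.31 to 0.40.

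The ratios within libraries bore the same split. The ratio of miR-200b to miR-429 averaged 0.767 in the 9 and 1.02 in the 21 (exact permutation test, p = 7.19e-05, adjusted 0.000304). The ratio of miR-200b to miR-200a was 0.263 in the 9 and 0.298 in the 21 (exact permutation test, p = 0.000122, adjusted 0.000304), and 18 of the 21 lay above each of the 9. The ratio of miR-200c to miR-141 was 0.114 against 0.128 (exact permutation test, p = 0.00460, adjusted 0.00575). That of miR-200a to miR-429 was 2.91 against 3.42 (exact permutation test, p = 0.00299, adjusted 0.00498). Partners of a genomic group therefore differed in level by unequal amounts between the sets. With 26% of single miRNAs called between the sets in both directions, this need not be particular to these pairs. The share of ratios of other miRNA pairs that would pass was not measured. Across the groups, the ratio of miR-200b to miR-200c was 0.428 in the 9 and 0.403 in the 21 (exact permutation test, p = 0.0832, adjusted 0.0832). Taken along the label number with no boundary, a comparison chosen after seeing the data, miR-429 had rho = 0.50 (r = 0.63, permutation p = 0.00536 and 0.000380, adjusted 0.0184 and 0.00190 over the 5 members) and r = 0.67 without the 2 farthest calves. Its neighbour miR-200a had rho = 0.48 (r = 0.45, permutation p = 0.00738 and 0.0135, adjusted 0.0184 and 0.0337) and r = 0.42 without the 2 farthest calves. Within the 21 libraries rho was -0.14 for miR-429 and 0.28 for miR-200a (permutation p = 0.546 and 0.213). The label numbers carry no stated meaning beyond naming the calf, and what the sets differ in was not tested.

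**Figure D5:**
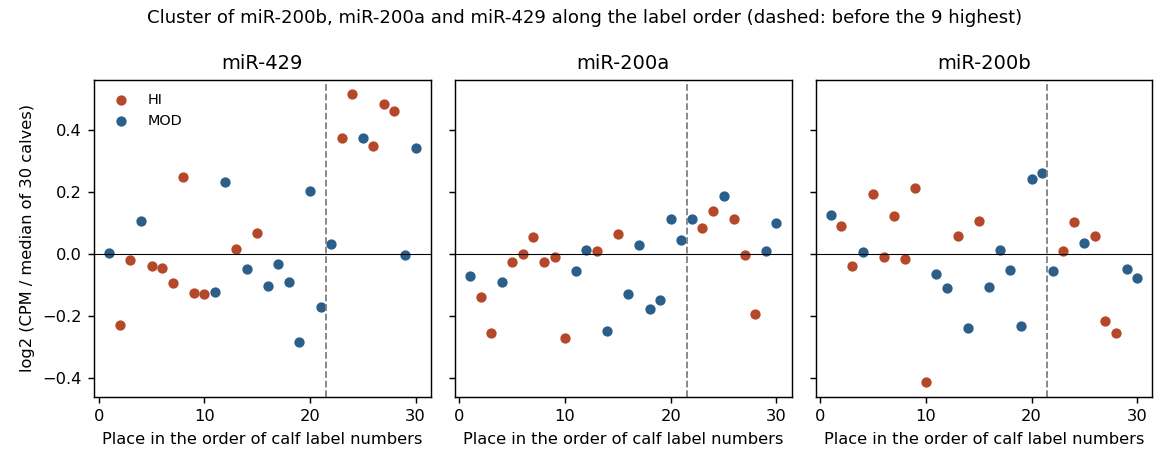
Log2 of CPM over the median of 30 calves for miR-429, miR-200a and miR-200b, the 3 members of a genomic group, along the rank of the calf label number, with HI in red and MOD in blue. Right of the dashed line stand the 9 highest numbers, of which 7 lie above each of the other 21 for miR-429 but none does for miR-200b.

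The miRNAs whose levels were most like those of the members over the 30 calves included endocrine ones. The summed neuroendocrine list, given below, did not follow all members. On the mean of the standardised values of the 5 members, the highest correlation among the 414 tested miRNAs outside the family was that of miR-7 (r = 0.69), a miRNA of endocrine cells that averaged 17064 CPM. The next were miR-181c (0.65), miR-106b (0.54), miR-660 (0.53) and miR-99a-5p (0.52), against a median of 0.01 over the 414. For miR-7 it was 0.75 within the 21 libraries and 0.59 within the 9. The lowest belonged to miR-432 (-0.71), miR-433 (-0.66), let-7e (-0.61), miR-149-5p (-0.60) and miR-328 (-0.58).

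Taken singly, miR-141 and miR-200a were most like miR-7 (r = 0.55 and 0.65), with miR-24-3p and miR-2483-5p next for miR-141 and miR-660 and miR-11971 next for miR-200a. The closest to miR-200b were miR-24-3p (0.63), miR-181c (0.60) and miR-2299-5p (0.58). For miR-200c they were miR-183 (0.74), miR-23a (0.71) and miR-11986b (0.71). The closest to miR-429 were miR-502a (0.81), miR-424-3p (0.75) and miR-375 (0.75). For miR-375 the correlation with miR-429 was 0.66 within the 21 libraries and 0.20 within the 9. No miRNA stood among the 3 closest of both miR-429 and another member. All these values share the scaling of the libraries, and they are descriptions.

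Markers of other cell types were compared beside the family, as whole tissue cannot tell fewer cells of a type from less RNA per cell. Among 5 neuroendocrine miRNAs (miR-375, miR-7, miR-182, miR-183 and miR-96) none passed FDR < 0.1 between the diets. In the 9 libraries, however, miR-375, miR-7 and miR-96 were higher by 0.37, 0.25 and 0.42 on the log2 scale (adjusted p = 0.000463, 0.0817 and 0.00218 with limma) and miR-183 was lower, by 0.27 (log2 difference -0.27, adjusted p = 0.0403). The summed level of the 5 was 179741 to 237704 CPM in the 9 and 140846 to 220061 CPM in the 21. The means were 146057 CPM for miR-375, 26000 for miR-182, 17064 for miR-7, 2167 for miR-183 and 68.2 for miR-96. The summed list, and so its correlations given below, is therefore mostly miR-375. None of the 6 stromal, 2 endothelial and 3 red blood cell miRNAs passed between the diets or between the sets. In the red blood cell list, miR-451 and miR-144 had diet log2 fold changes of 0.55 and 0.46 (adjusted p = 0.190 and 0.115 with limma). That of miR-486 was -0.27 (adjusted p = 0.274 with limma). The means were 19194 CPM for miR-486, 130 for miR-451 and 4.44 for miR-144, so the summed list is mostly miR-486. It was 10578 to 24489 CPM in HI and 15557 to 27422 CPM in MOD calves. Over the 30 calves that sum, and so mainly miR-486, had r = 0.56 with miR-200c (0.49 within the 21 libraries, 0.61 within the 9) and r = 0.52 with miR-200b (0.50 and 0.55). The summed endothelial list, mainly miR-126-5p, had r = 0.47 with miR-200b (0.41 and 0.68) and 0.40 with miR-200a (0.29 and 0.90). With miR-141 it had r = 0.30 (0.05 and 0.85), with miR-200c 0.30 (0.12 and 0.45) and with miR-429 -0.02 (0.21 and -0.02). Of the 6 white blood cell and 5 tested neural miRNAs, none passed between the diets, and miR-146a and miR-128, respectively, were higher in the 9. The summed neuroendocrine list had r = 0.54 with miR-200a, 0.14 with miR-141, -0.08 with miR-200b and -0.33 with miR-200c over the 30 calves. Within the 21 libraries these were 0.30, 0.04, -0.01 and -0.11, and within the 9 they were 0.52, 0.54, 0.27 and 0.12. Over the 30 calves miR-429 had r = 0.68 with the summed neuroendocrine list (0.61 within the 21 libraries, -0.13 within the 9) and r = 0.70 with the summed neural list (0.55 within the 21, 0.72 within the 9). The summed neural level was 979 to 1622 CPM in the 9 and 932 to 1335 CPM in the 21, and its defining marker miR-124a was near 0 as given above. That sum is mostly miR-218 and miR-128, at means of 529 and 465 CPM. With the neural sum miR-200c had r = -0.53 (-0.47 within the 21, -0.35 within the 9). For miR-141, miR-200b and miR-200a it was -0.29, -0.20 and 0.04 over the 30 calves. With the summed stromal list, at 38716 to 49712 CPM in the 9 and 32239 to 183489 CPM in the 21, miR-429 had r = -0.17. Within the 21 it was -0.16 and within the 9 it was 0.43. The highest stromal sum was in an HI calf, and the highest in MOD calves was 76274 CPM. These correlations, too, are descriptions that share the scaling of the libraries, and not every pair of list and member is given. The part of these markers in the levels of the family was not tested.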

How the data were processed

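Total RNA of the anterior pituitary was sequenced as small RNA libraries, 1 per calf. The authors trimmed reads with Cutadapt, selected them by length, filtered out other small RNA species, aligned with Bowtie to ARS-UCD1.2 and counted known bovine miRNAs with miRDeep2. The deposited values are a normalised signal, counts per 1000000 reads (CPM) scaled by TMM factors, and not raw counts. The TMM scaling was read from the values: factors recomputed from recovered reads lay within 6.64e-06 of those deposited. Reads were recovered from the value of 1 read in each library, and at least 94.7% of values up to 1000 reads were whole within 0.01. The recovery gave the right total in 20 of 20 simulated libraries. No libraries were copies (chi-square per degree of freedom at least 85.1 over 435 pairs).

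Diets were compared with limma 3.58.1 (R 4.3.3) on log2(CPM + 1) of the 419 miRNAs passing filterByExpr of edgeR 4.0.16, with the study's thresholds (FDR < 0.1 by Benjamini-Hochberg adjustment, fold change > 1.5). In simulated data, 200 of these 419 miRNAs were changed at once. At 1.2-fold 105 of 200, and at 1.5-fold 186 of 200, were called in the right direction at FDR < 0.1. Unchanged miRNAs called numbered 6 and 11. In the real data 3.58% were called, and recovery with so few changed miRNAs was not simulated. Ratios and correlations had two-sided permutation tests with 100000 resamples, or exact ones where a set held under 10 calves. Values measure the spread between calves, and reads without molecular identifiers count amplified copies. Levels of different miRNAs in ligation-based libraries are comparable only roughly.

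Alternatives were other tests (edgeR, DESeq2 1.42.0), scalings, filters, a pseudocount of 0.1, covariates, the label sets, and each calf left out. The family was proposed, and the lists were chosen, with earlier results of these data known, although membership goes by name. The named miRNAs are the members, the 3 closest to each member and the 5 closest to and farthest from the family by Pearson's r, marker list members and miR-205. The list of other epithelial miRNAs held miR-205 and miR-203. No row of the deposited values bore the name miR-203, so miR-205 stood alone. In the striated muscle list, 2 of 4 miRNAs were tested and none passed between the diets or sets. The 4 label ranges are those into which the last digits of the calf labels fall. Positions, sequences and predicted targets were not analysed here, and the mRNA and protein data were not used here. Symbols of all 5 members matched the RefSeq table.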

Additional observations from a re-analysis of the deposited data

How the results depend on the processing

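None of the 5 members passed FDR < 0.1 between the diets in limma or had an unadjusted p under 0.05 there, and none was called in 14 of the 15 alternatives or in any of the 30 fits that left out 1 calf (0 to 0). With upper quartile factors 1 passed, miR-200c, at -0.21 (unadjusted p = 0.00354, adjusted p = 0.0619), against -0.0426 on total counts and -0.0396 without the 5 most abundant miRNAs. With DESeq2 its unadjusted p was 0.0433. Leaving out HI replicate 1, 3 or 7 or MOD replicate 7 or 15 also brought it under 0.05, to between 0.0239 and 0.0484. The unadjusted p of miR-429 was 0.0429 within the 9 libraries. The signs near 0 turned with the setting. For miR-200a the log2 fold change became 0.0540 on total counts, 0.0570 when library sizes left out the 5 most abundant miRNAs, 0.00333 with the label range as a block and 0.00602 within the 21 libraries. For miR-141 the same settings gave 0.0585, 0.0615, 0.00788 and 0.0184. With upper quartile factors miR-200b was at -0.0807 and miR-429 at -0.00734; within the 9 libraries miR-200b was at -0.0244, and within the 21 miR-429 was at -0.00666. Leaving out 1 calf gave -0.0256 to 0.00770 for miR-200a, -0.0199 to 0.0208 for miR-141, 0.00416 to 0.05 for miR-200b, -0.12 to -0.08 for miR-200c and 0.07 to 0.12 for miR-429. Upper quartile factors moved the median of all tested miRNAs from 0.02 to -0.08, and total counts to 0.07, which is larger than most of these differences.

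The count of all miRNAs at FDR < 0.1 was 15, and it was 24 with DESeq2, 29 with upper quartile factors and 0 within the 9 libraries alone, with fewer samples, and 14 to 21 with 1 calf left out. At a fold change over 1.5 it was 2, and it was 4 with edgeR's quasi-likelihood and exact tests and with DESeq2, 1 with upper quartile factors and within the 21 libraries, 0 within the 9, and 2 to 4 with 1 calf left out (4 without HI replicate 13). Of the 5 ratios 1 passed between the diets, miR-200b to miR-200c, and 0 passed within the 21 libraries, 2 within the 9 (that ratio and miR-200a to miR-429), and 1 to 2 with 1 calf left out. The ratios of miR-200b and miR-200a to miR-429 turned to 0.0507 and 0.0127 within the 21 libraries. The correlation of miR-200b with miR-429 turned to 0.11 on total counts, 0.0652 with upper quartile factors and 0.0363 without the 5 most abundant miRNAs. With upper quartile factors the set difference of miR-141 turned to -0.0299. The cause of these changes was not tested. No paired analysis was possible because replicate numbers are in accession order and none in the labels ties an HI calf to a MOD calf.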
